A study of Mus musculus with 12 samples.

Results

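Common myeloid progenitors that carry CD27 were compared with megakaryocyte-erythrocyte progenitors (MEP), as 2 of the 4 progenitor populations sorted from mouse bone marrow in this study. The comparison used the 3 arrays whose titles name CD27+ common myeloid progenitors (CMP) and the 3 whose titles name MEP, 6 of the 12 arrays in all, across all 45037 probe sets of an Affymetrix Mouse Genome GeneChip. Both populations came from female C57BL/6 mice aged 4 to 6 weeks and were sorted as Lin-, CD117+ and Sca-1- cells. CD27+ CMP were in addition CD34+, CD16/32- and CD27+, whereas MEP lacked CD34, CD16/32 and CD27. RNA of 80000 cells per population was hybridised. Arrays of a population are named biological replicates by the labels, with no word on animals or pooling, so p-values here measure the spread between arrays, which may be technical. The other 6 arrays hold CD27- CMP (CD34+, CD16/32-, CD27-) and granulocyte-monocyte progenitors (GMP, which carry CD34, CD16/32 and CD27) and enter below only where named.

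A common myeloid progenitor is defined by its position in a surface gate from which cells of red cell, platelet, granulocyte and monocyte lineages can grow, and MEP is the neighbouring gate whose progeny are red cells and megakaryocytes. The branch between these fates is classically described as an opposition of transcription factors: Gata1 with its partners drives red cell and megakaryocyte genes, while Spi1 (PU.1) and the C/EBP factors drive granulocyte and monocyte genes. CD27 belongs to the tumour necrosis factor receptors and is found on lymphocytes and on early haematopoietic progenitors.

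The deposited values are log2 signals relative to the median of the 12 arrays for each probe set, so that 0 is the middle array and the absolute level is lost. For a gene that reads close to 0 on every array, absence and an even level cannot be told apart. Every difference below is the log2 difference CD27+ CMP minus MEP unless another is named, with its standard error (SE) and the Benjamini-Hochberg adjusted p of limma, and a gene passed when that p was under 0.05. In sorted bulk samples, fewer cells of a type and less RNA per cell cannot be told apart.

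The differences were broad and large. Of 18193 genes, 3773 passed (20.7%), 1904 of them higher in CD27+ CMP (10.5%) and 1869 lower (10.3%). Among the 45037 probe sets 6620 passed (14.7%), 3198 higher (7.1%) and 3422 lower (7.6%). With a size of at least 1 log2 asked for as well, 1551 genes were higher (8.53%) and 1147 lower (6.3%), or 14.8% in all. Of the probe sets 9.5% then passed, 5.42% higher and 4.08% lower. At 3 log2 or more the numbers were 556 higher and 234 lower, and at 5 log2 or more 198 and 91. A pair of arrays of the same population differed by a standard deviation of 0.37 to 0.63 log2 over the 15263 probe sets that spanned at least 1 log2, and a pair of arrays of different populations by 1.67 to 1.79 log2. The count of lower genes depended on single arrays: it was 1078 without MEP replicate 2 and 1240 without CD27+ CMP replicate 3, and lower probe sets numbered 1980, 2180 and, without CD27+ CMP replicate 1, 2271. The 3 arrays of CD27+ CMP lay wholly below those of MEP for 45.6% of genes and wholly above for 15.3%. Among the 7471 genes that spanned under 0.5 log2 over the 12 arrays, 63.4% lay wholly below and 0.228% wholly above, and among the other 10722 genes 33.1% and 25.8%. The median difference over all genes was -0.049 log2, and 284 of the 293 calls smaller than 0.2 log2 were lower.

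**Figure D1:**
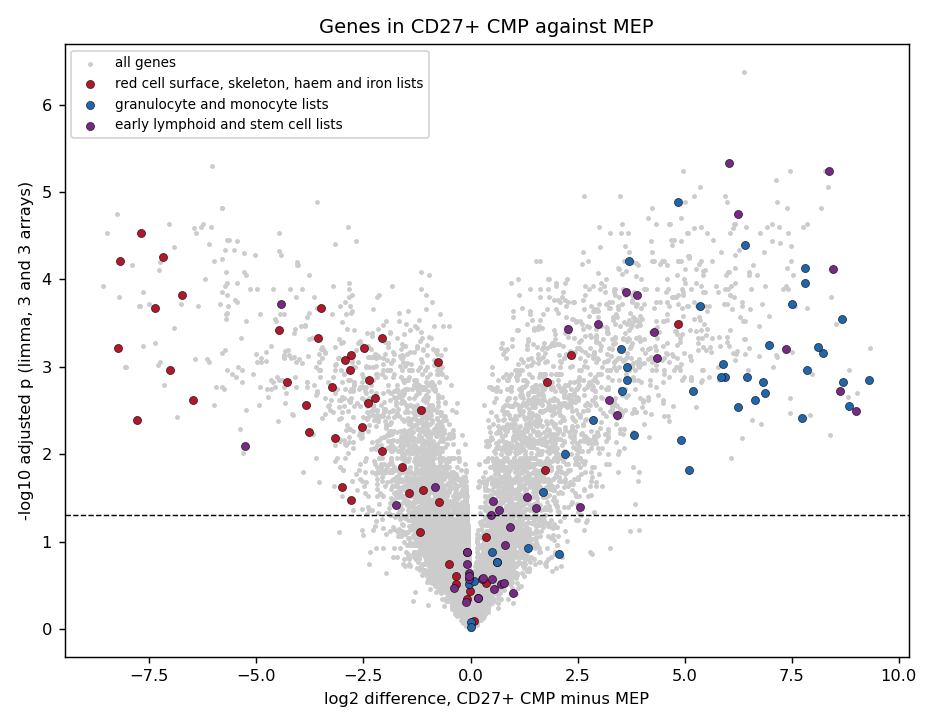
Each point is a gene, with the log2 difference CD27+ CMP minus MEP on the x axis and -log10 of the limma adjusted p (3 and 3 arrays) on the y axis; the dashed line marks an adjusted p of 0.05. Coloured points are members of the named lists: red cell, haem and iron genes lie mostly to the left, granulocyte and monocyte genes to the right, and early lymphoid and stem cell genes on both sides, mostly to the right.

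The upstream sequences of 4 genes that recur below are shown. Gata1 and Spi1, which differed between the populations, have well known DNA words. The 4 genes were picked from called genes with large differences that hold a word, so their matches were fixed beforehand. Only lower genes were considered for the GATA word and only higher genes for the PU.1 word. The 250 bases before the start of each gene were taken from RefSeq (GRCm38.p6), and letters in capitals mark the word. Rhd (the Rh blood group protein, chr4:134864286-134864535, plus strand) and Epor (the erythropoietin receptor, chr9:21963577-21963826, minus strand) hold the GATA word AGATAAG, which in Epor reads as its reverse complement. Prtn3 (proteinase 3, chr10:79879417-79879666, plus strand) and Mpo (myeloperoxidase, chr11:87793534-87793783, plus strand) hold the PU.1 word GAGGAAGT.
Rhd: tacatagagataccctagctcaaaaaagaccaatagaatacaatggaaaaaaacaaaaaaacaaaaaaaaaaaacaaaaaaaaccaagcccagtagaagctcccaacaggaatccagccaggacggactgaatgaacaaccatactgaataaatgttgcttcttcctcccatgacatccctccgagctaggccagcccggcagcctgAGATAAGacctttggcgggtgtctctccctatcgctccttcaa
Epor: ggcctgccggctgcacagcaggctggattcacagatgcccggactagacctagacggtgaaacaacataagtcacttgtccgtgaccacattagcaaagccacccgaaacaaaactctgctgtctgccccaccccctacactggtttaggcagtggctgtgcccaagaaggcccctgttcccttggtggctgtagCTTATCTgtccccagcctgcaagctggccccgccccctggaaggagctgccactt
Prtn3: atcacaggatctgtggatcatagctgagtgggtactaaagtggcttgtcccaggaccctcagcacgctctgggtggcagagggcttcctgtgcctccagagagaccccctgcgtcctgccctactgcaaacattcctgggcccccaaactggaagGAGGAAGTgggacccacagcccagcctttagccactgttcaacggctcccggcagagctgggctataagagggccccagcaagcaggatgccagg
Mpo: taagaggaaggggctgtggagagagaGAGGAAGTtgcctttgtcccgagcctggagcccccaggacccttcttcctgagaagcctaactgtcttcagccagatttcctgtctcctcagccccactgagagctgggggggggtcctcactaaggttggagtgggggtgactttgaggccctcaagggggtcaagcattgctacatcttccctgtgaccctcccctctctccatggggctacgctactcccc
The word starts 43 bases before the gene start in Rhd, 55 in Epor, 95 in Prtn3 and 224 in Mpo. Searched on both strands, AGATAAG occurred in 2.15% of the 14452 genes with such a window, in 6.45% of the 186 genes lower by at least 3 log2 and in 1.83% of the 437 genes higher by at least 3 log2. GAGGAAGT occurred in 2.32% of all windows, in 4.58% of those 437 higher genes and in 1.08% of the 186 lower genes. With a bound of 1 log2 in place of 3, AGATAAG stood in 2.87% of 941 lower genes and GAGGAAGT in 4.34% of 1243 higher genes. The shorter words AGATAA and TGATAA occurred in 7.47% and 4.91% of all windows, in 12.4% and 9.68% of the lower genes and in 7.55% and 5.95% of the higher genes. In the 941 genes lower by at least 1 log2 they stood in 7.01% and 4.78%, below the shares of all windows. AGATAA is contained in AGATAAG, so those counts are not separate. The Klf word CCACACCC stood in 4.84% of the lower, 6.18% of the higher and 3.54% of all windows, and its looser form CCNCNCCC in 65.6%, 67.0% and 59.2%. The C/EBP word TTGCNNAA stood in 8.6% of the lower, 8.92% of the higher and 8.07% of all windows. These 7 words were settled after other spellings had been tried on the same data, no test was made of the shares, and a match describes letters and not a bound site.

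The genes furthest above MEP encoded surface proteins and regulators of white blood cells. Emb, which encodes the adhesion molecule embigin, read 4.78, 4.33 and 4.25 in CD27+ CMP and -3.75, -5.21 and -5.68 in MEP. The difference was 9.33 log2 (SE 0.54, adjusted p = 0.00061). Emb had 3 probe sets, of which 2 passed, and the others ranged from 0.86 to 8.95. Irf8, a transcription factor needed for monocytes and dendritic cells, read 4.60, 4.60 and 4.36 against -3.27, -5.22 and -5.89, a difference of 9.31 (SE 0.71, adjusted p = 0.0014). In both genes the MEP arrays were spread far wider than the CD27+ CMP arrays, with MEP replicate 1 nearest to them, and the groups were far from overlapping. Next came Cd52, a small glycoprotein of lymphocytes and monocytes, at 9.02, and Cd34, the sialomucin read by the sort, at 9.01. Tyrobp, the signalling adaptor DAP12, and Ms4a6b, a membrane protein of the MS4A family, both stood 8.83 higher. The tetraspanin Cd53 was higher by 8.82, Ly86 (MD-1, a partner of the Toll-like protein RP105) by 8.69, Csf1r (the macrophage colony-stimulating factor receptor) by 8.66 and Ighm (the immunoglobulin mu heavy chain) by 8.63. Ighm had 11 probe sets, of which 2 passed, and the others ranged from -0.26 to 7.49. The chemokine gene Ccl9 followed at 8.52 and Dntt, terminal deoxynucleotidyl transferase of early lymphocytes, at 8.46. Dntt took a form of its own among these 12: the CD27+ CMP arrays read 7.96, 8.84 and 8.55, while those of MEP read 0.00, 0.01 and -0.04.

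The genes furthest below MEP included Rhd, Rhag and Ermap, all 3 on the list of red cell surface proteins. Cldn13, a claudin of mouse erythroid cells, was lower by 8.58 (log2 difference -8.58, SE 0.28, adjusted p = 0.00012). Slc38a5, a glutamine transporter, read -4.67, -4.68 and -5.20 in CD27+ CMP and 3.56, 3.70 and 3.61 in MEP, a difference of -8.48 (SE 0.16, adjusted p = 2.9e-05). Here the MEP arrays lay close together and the wider spread was in CD27+ CMP. The tetraspanin Tspan8 stood at -8.26, Rhd at -8.22, the lamin A/C gene Lmna at -8.21 and Rhag, the Rh-associated ammonium channel, at -8.18. Tspan8 and Lmna had 5 probe sets each, of which 3 passed. The others than the 1 read ranged from -3.03 to -0.045 in Tspan8 and from -4.82 to -0.054 in Lmna. Sphk1, which makes sphingosine 1-phosphate, stood at -8.06 and Tspo2, an erythroid relative of the translocator protein, at -8.04. The erythroid membrane protein gene Ermap stood at -7.78 and the sodium pump subunit Atp1b2 at -7.71. Aldh1a7 (-7.90) and Aldh1a1 (-7.73) encode near-identical aldehyde dehydrogenases, so how the signal divides between them is uncertain. All 24 genes of these 2 groups kept their calls when any of the 6 arrays was left out.

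**Figure D2:**
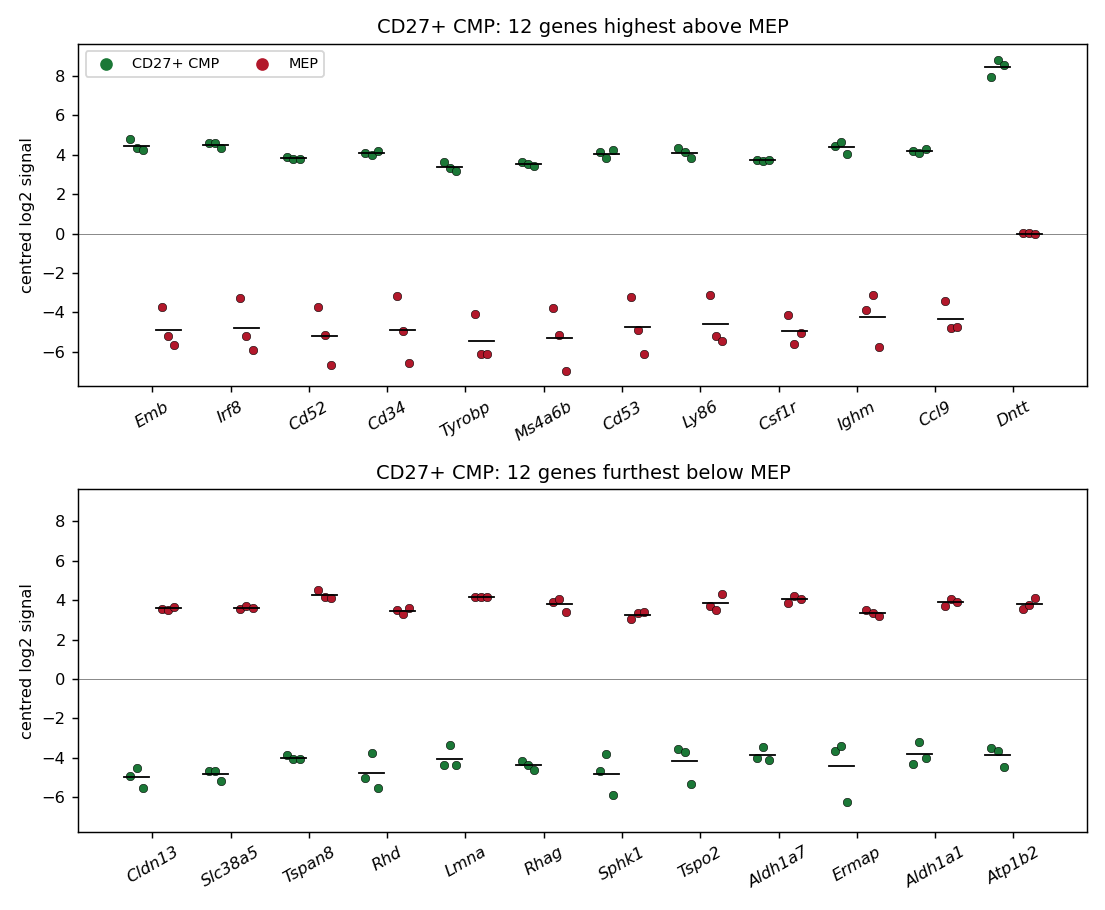
Centred log2 signal (y axis) of the 12 genes furthest above and the 12 furthest below MEP in CD27+ CMP; each point is an array (3 per population) and bars are means. The arrays of the population with the lower signal are the more scattered in most genes, and only Dntt has MEP arrays at 0 rather than well below it.

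The genes of the sort markers differed as the gates did except for CD16/32. Cd27 was higher by 7.15 (SE 0.10, adjusted p = 1.3e-05), as Cd34 was by 9.01. Kit, the gene of CD117, on which both populations were sorted, differed by -0.52 and did not pass (adjusted p = 0.18). Both populations were sorted without CD16/32, the Fc gamma receptors encoded by Fcgr3 and Fcgr2b. Fcgr3 nonetheless read 3.65, 1.92 and 1.04 in CD27+ CMP against -1.04, -1.36 and -2.51 in MEP, a difference of 3.84 (SE 0.80, adjusted p = 0.037) that was lost without CD27+ CMP replicate 2 or without any 1 of the MEP arrays (adjusted p up to 0.11). Fcgr2b was higher by 7.16 (SE 0.45, adjusted p = 0.00077), and 4 of its 5 probe sets passed. The sort read protein and the arrays RNA.

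The transcription factors of the red cell and megakaryocyte lineage divided. Of 16 measured, 8 were lower in CD27+ CMP (50.0%, against 10.3% of all genes) and 4 higher (25.0%, against 10.5%). Higher members numbered 2 without MEP replicate 2, and the median was -1.03 against -0.049 over all genes. Klf1, the factor that drives globin and red cell membrane genes, read -4.49, -3.38 and -4.99 in CD27+ CMP and 2.63, 2.84 and 3.40 in MEP, a difference of -7.24 (SE 0.48, adjusted p = 0.00088). Gata1 itself read -4.15, -2.35 and -3.54 against 2.39, 2.50 and 2.51, a difference of -5.81 (SE 0.47, adjusted p = 0.0017). No CD27+ CMP array came near an MEP array in either gene. The repressor Gfi1b (-4.89), the Gata1 cofactor Zfpm1 (FOG1, -3.54), the E-box factor Tal1 (-2.44), the globin-switching repressor Bcl11a (-2.28) and Sox6 (-1.43), which acts with it, fell with them. The bridging protein Ldb1 was lower as well (log2 difference -1.004, adjusted p = 0.032), a call lost without any of 5 of the 6 arrays, MEP replicate 1 being the exception. The 4 higher members were Fli1, Mef2c, Runx1 and Lmo2. Fli1, an ETS factor of megakaryocytes, stood at 3.79 (SE 0.10), Mef2c at 3.75 (SE 0.21) and Runx1 at 2.21 (SE 0.37). Runx1 was no longer past the threshold without CD27+ CMP replicate 1 or 3 or MEP replicate 2 or 3 (adjusted p up to 0.075), nor was Lmo2, higher by 0.40, without MEP replicate 2 (adjusted p = 0.051). Gata2 (-0.46, adjusted p = 0.12), Nfe2 (0.545, adjusted p = 0.21), Cbfa2t3 (-0.21, adjusted p = 0.36) and Zbtb7a (-1.06, adjusted p = 0.11) did not pass.

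Red cell surface proteins gave the most one-sided list on the MEP side: 13 of 15 were lower (86.7%, against 10.3% of all genes), none higher, and the median was -3.16. The blood group proteins Rhd, Rhag, Ermap and Kel (-7.69), the water channel Aqp1 (-7.02) and the erythropoietin receptor Epor made up its far end. Epor read -2.93, -3.50 and -3.75 in CD27+ CMP and 3.15, 3.36 and 3.50 in MEP, a difference of -6.73 (SE 0.24, adjusted p = 0.00015). The complement inhibitor Cd59a (-3.56), the adhesion protein Icam4 (-3.16), the Kell partner Xk (-2.81), the urea transporter Slc14a1 (-2.79) and the glycophorin Gypc (-0.76) followed. Tfrc, the transferrin receptor, stood at -2.99 and Cd36 at -2.78, but Tfrc lost its call without CD27+ CMP replicate 1 or 3 or MEP replicate 1 or 2 (adjusted p up to 0.087). Cd36 kept its call only without MEP replicate 3 (adjusted p up to 0.11 without the others). The anion exchanger Slc4a1 (band 3), a late protein of the red cell membrane, did not pass, at -0.49. Of 11 proteins of the membrane skeleton, 7 were lower (63.6%, against 10.3% of all genes) and 1 higher (9.1%, against 10.5%). Lower members numbered 4 without MEP replicate 2 and higher members 2 without MEP replicate 3. Beta adducin Add2 (-7.17), ankyrin Ank1 (-6.48), protein 4.2 (Epb42, -3.85) and beta spectrin Sptb (-2.38) led, while the tropomyosin Tpm3 was higher by 1.78.

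Haem synthesis genes were mostly lower, and the gene of the entry step went against them. Of 14 genes 10 were lower (71.4%, against 10.3% of all genes) and 1 higher (7.1%, against 10.5%), with a median of -2.15. Cpox, coproporphyrinogen oxidase, read -1.93, -2.06 and -2.70 in CD27+ CMP and 2.28, 2.36 and 2.11 in MEP, a difference of -4.48 (SE 0.22, adjusted p = 0.00038). The mitochondrial glycine carrier Slc25a38 (-3.77), ferrochelatase Fech (-2.93), Urod (-2.54), Alad (-2.40), Ppox (-2.23) and Uros (-2.07) were lower as well, as were the transporters Abcb6 (-2.48) and Abcb10 (-2.07). Alas1, the housekeeping form of the first enzyme, went the other way. It read 1.425, 1.070 and 1.002 in CD27+ CMP and -1.301, -1.245 and -1.002 in MEP, a difference of 2.35 (SE 0.14, adjusted p = 0.00073). Alas2, the red cell form of the same enzyme, differed by -0.02 on a nearly flat probe set. None of the 6 measured globin genes passed either, their differences running from -0.05 (Hba-x) to 0.17 (Hbb-y), and 4 of the 8 genes in the list of globins and carbonic anhydrases were flat over the 12 arrays. The carbonic anhydrases Car1 (-6.85, SE 0.71) and Car2 (-3.86, SE 0.18), which are early red cell genes, were both lower.

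Iron genes followed in part, with 6 of 11 lower (54.5%, against 10.3% of all genes) and 2 higher (18.2%, against 10.5%). The iron exporter Slc40a1 (ferroportin) stood at -7.37 (SE 0.30), the importer Slc11a2 at -4.29, the ferrireductase Steap3 at -3.50 and the second transferrin receptor Tfr2 at -3.23. Hfe, whose product binds the transferrin receptor and restrains it, was higher by 4.84 (SE 0.22, adjusted p = 0.00032). Its second probe set differed by 0.11. Ncoa4, which delivers ferritin for breakdown, was higher by 1.75, a call lost without MEP replicate 1 or 2 (adjusted p up to 0.066). Ferritin heavy chain Fth1 did not pass, at -0.33.

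Megakaryocyte and platelet genes went both ways: 5 of 22 were higher (22.7%, against 10.5% of all genes), 3 lower (13.6%, against 10.3%) and 14 did not pass, with a median of -0.10. The platelet glycoprotein Gp5 was lower by 4.08 (log2 difference -4.08, SE 0.33) and the thrombin receptor F2r by 1.90 (log2 difference -1.90, SE 0.22). Plek (pleckstrin, 4.01), the granule gene Nbeal2 (3.85), P-selectin Selp (3.77) and the tetraspanin Cd9 (1.05) were higher. Itgb3 stood at 1.62 and Vwf at -1.46, both with calls lost without CD27+ CMP replicate 1 or 3 or MEP replicate 2 (adjusted p up to 0.09 and 0.073). Itga2b, which encodes CD41, did not pass (1.17, adjusted p = 0.12), nor did Pf4 (-0.14), Ppbp (-1.34) or Gp9 (-0.77).

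**Figure D3:**
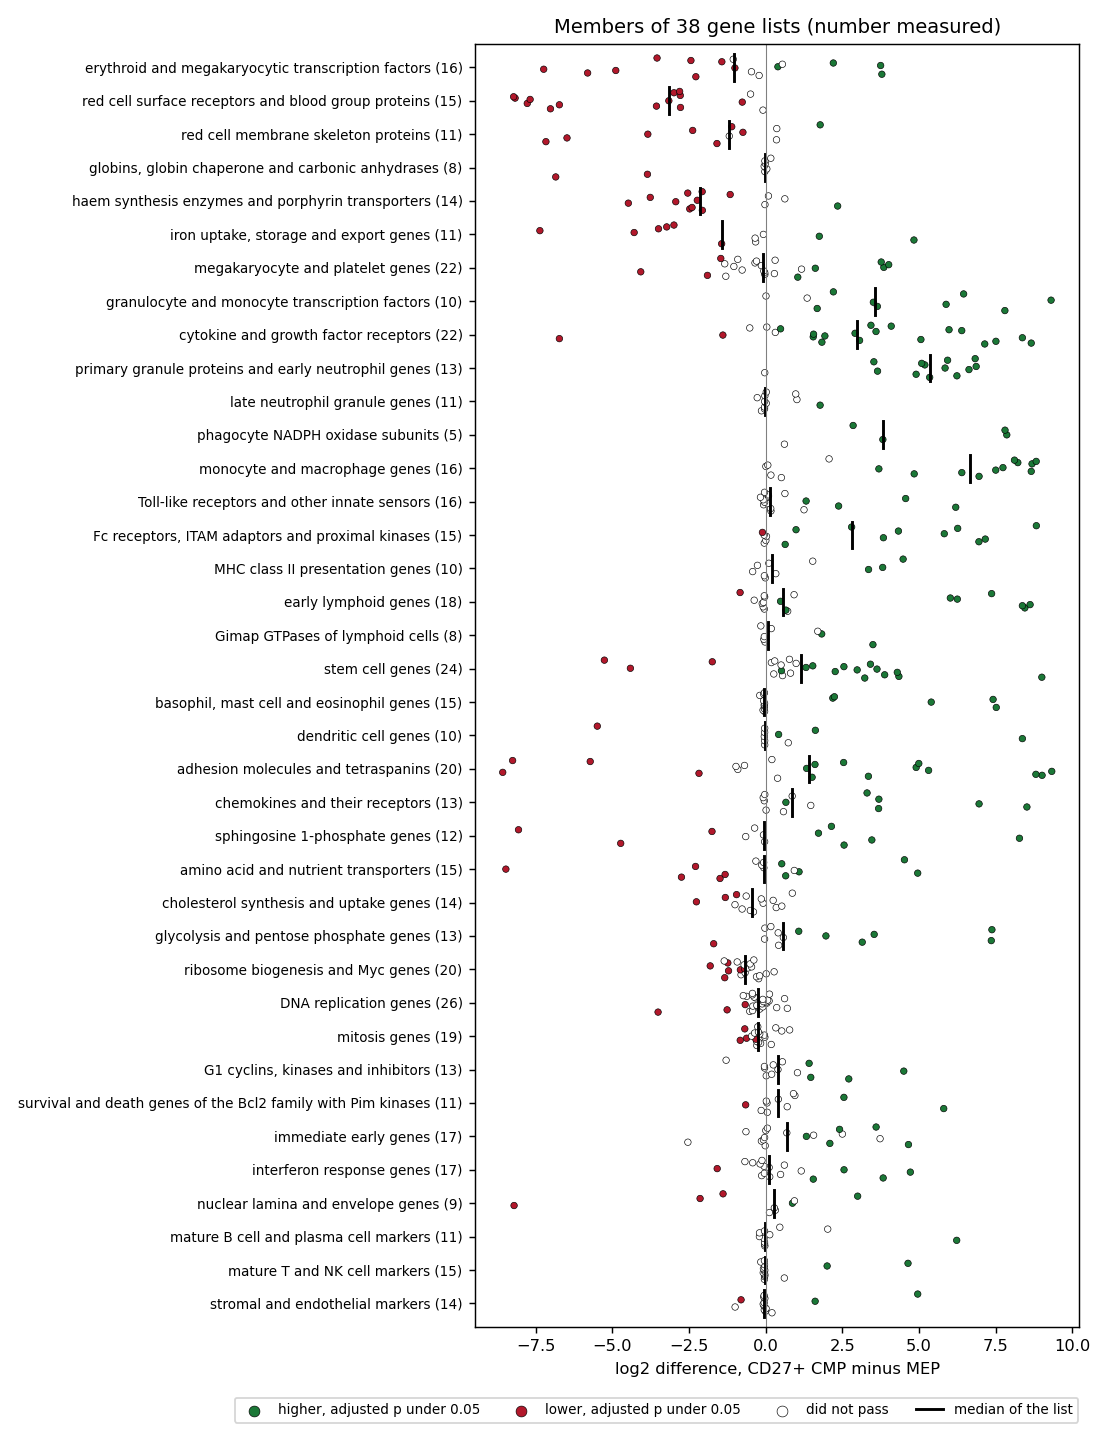
Log2 difference CD27+ CMP minus MEP (x axis) of every measured member of 38 gene lists (rows, with the number measured). Green points were higher and red points lower at an adjusted p under 0.05, open points did not pass and black bars are list medians. Primary granule, monocyte and cytokine receptor lists lie to the right, red cell surface, haem and iron lists to the left, and lists of mature lymphoid, stromal and late granule genes stand mostly at 0.

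On the other side, 8 of 10 granulocyte and monocyte transcription factors were higher (80.0%, against 10.5% of all genes) and none lower, with a median of 3.58. Cebpa, without which granulocyte-monocyte progenitors do not form, read 3.34, 3.03 and 2.81 in CD27+ CMP and -5.06, -4.44 and -4.73 in MEP. The difference was 7.80 (SE 0.21, adjusted p = 7.3e-05). Spi1, encoding PU.1, read 3.06, 2.80 and 2.43 against -4.69, -3.11 and -3.28, a difference of 6.46 (SE 0.48, adjusted p = 0.0013). The neutrophil repressor Gfi1 was higher by 5.89 (SE 0.39), Cebpd by 3.64, Irf5 by 3.51 and Zeb2 by 2.21. Cebpb stood at 1.68 and lost its call without CD27+ CMP replicate 1 or 2 or any of the MEP arrays (adjusted p up to 0.099). Klf4, a monocyte factor, did not pass, at 1.35 (adjusted p = 0.12), nor did the retinoic acid receptor gene Rara, at 0.01.

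**Figure D4:**
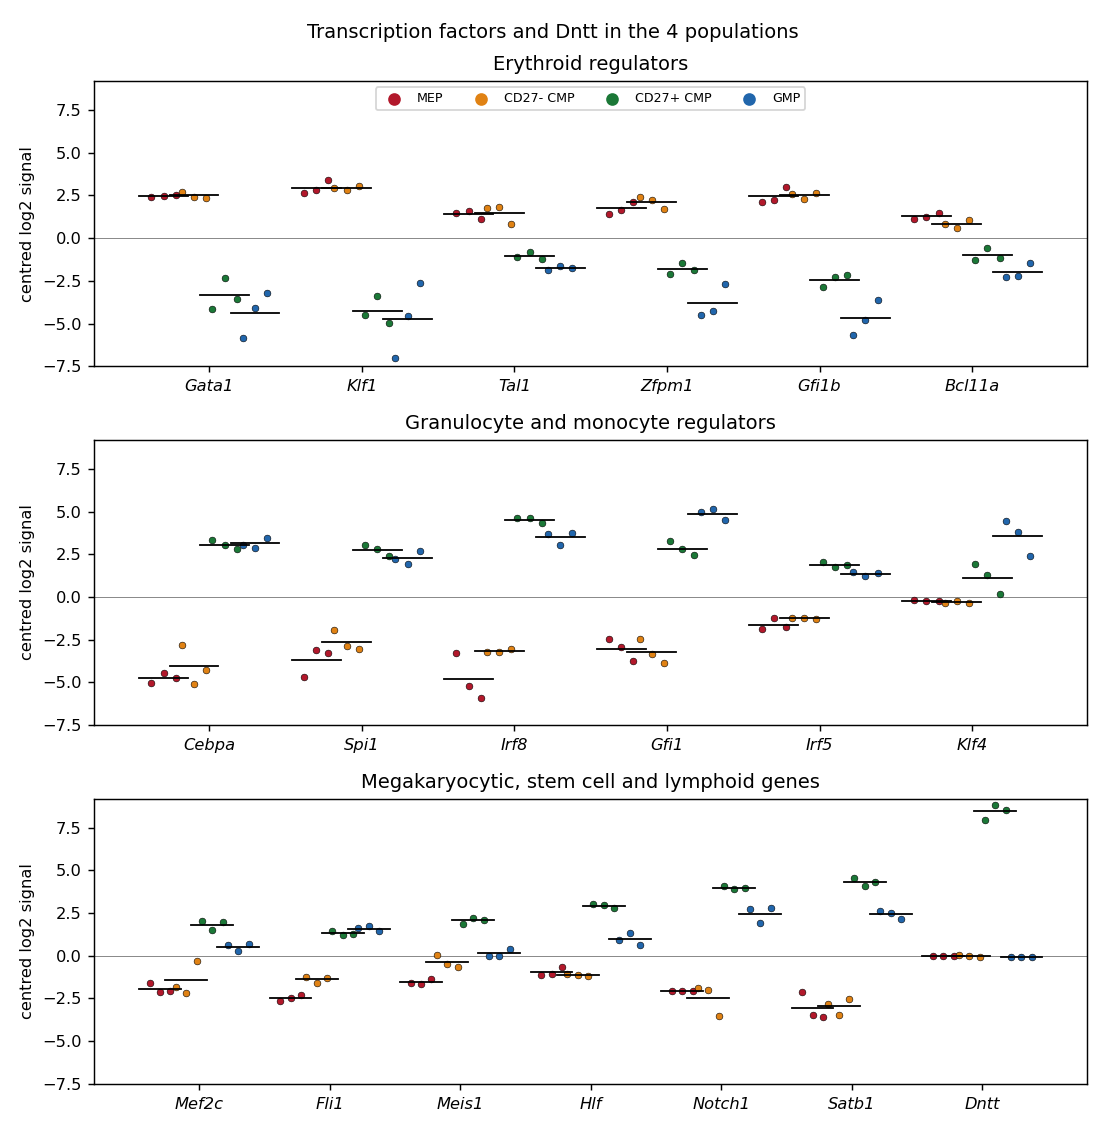
Centred log2 signal (y axis) of transcription factors and Dntt on each array of MEP, CD27- CMP, CD27+ CMP and GMP (3 each, bars are means). Erythroid factors are high in MEP and low in CD27+ CMP, granulocyte and monocyte factors the reverse, and Dntt stands above 7 in CD27+ CMP and close to 0 in the others.

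Receptors for growth factors and cytokines were mostly higher, with a median of 2.99. Of 22, 17 were higher (77.3%, against 10.5% of all genes) and 2 lower (9.1%, against 10.3%). The 17 include Cd27, a sort marker gene by which the gates differed, so its call is not separate from the sort. Flt3, a receptor of lymphoid and dendritic progenitors, read 7.09, 7.11 and 7.22 in CD27+ CMP and -1.10, -1.25 and -1.36 in MEP, a difference of 8.38 (SE 0.08, adjusted p = 5.7e-06). The shared beta chain of the interleukin 3, interleukin 5 and GM-CSF receptors, Csf2rb, was higher by 7.51, and the interleukin 6 receptor pair Il6ra and Il6st by 6.40 and 5.98. Csf3r, the G-CSF receptor, stood at 5.06, the tumour necrosis factor receptors Tnfrsf1a and Tnfrsf1b at 4.10 and 3.43, Il3ra at 3.60 and Csf2ra at 1.83. The interferon receptor chains divided: Ifnar1 (1.55), Ifnar2 (1.93) and Ifngr2 (1.56) were higher, while Ifngr1 was lower (log2 difference -1.40), a call lost without CD27+ CMP replicate 2 or MEP replicate 1 or 2 (adjusted p up to 0.076). Epor was the other receptor that was lower. Il10ra was called higher by 2.92 on its most variable probe set. Another of its 3 was called lower by a small amount (log2 difference -0.093), so its direction is uncertain.

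The genes of the first wave of granule proteins were higher, and those of later waves mostly did not pass. Among 13 primary granule and early neutrophil genes 12 were higher (92.3%, against 10.5% of all genes) and none lower, with a median of 5.35. Mpo read 2.31, 2.11 and 2.12 in CD27+ CMP and -2.17, -3.04 and -3.85 in MEP, a difference of 5.19 (SE 0.44, adjusted p = 0.0019). Prtn3 was higher by 5.93, the elastase gene Elane by 4.91, cathepsin G (Ctsg) by 6.24, haptoglobin (Hp) by 6.63 and the lysozyme genes Lyz2 and Lyz1, which are close copies, by 6.87 and 5.85. Ms4a3, a gene of committed granulocyte-monocyte progenitors, read 3.13, 3.04 and 1.54 against -1.54, -2.09 and -3.93. Its difference of 5.09 did not pass without CD27+ CMP replicate 1 or 2 or MEP replicate 2 (adjusted p up to 0.056). Of 11 genes of later granules only Itgam (CD11b, 1.78) was higher (9.1%, against 10.5% of all genes), and 2 were without CD27+ CMP replicate 1. Ltf (-0.04), Ngp (-0.03), Lcn2 (0.02) and S100a9 (0.02) stood at 0, and S100a8 (0.98) and Mmp8 (1.02) did not pass. The superoxide-generating oxidase had 4 of 5 subunits higher (80.0%, against 10.5% of all genes): Ncf1 (7.87), Ncf4 (7.81), Cybb (3.82) and Rac2 (2.85).

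Monocyte and macrophage genes had the highest median of the lists, 6.68, with 11 of 16 higher (68.8%, against 10.5% of all genes) and none lower. Apart from Csf1r, Ly86 and Ms4a6b, these were Mpeg1 (perforin-2, 8.23), Ms4a6c (8.12), F13a1 (the factor XIII subunit, 7.74), the protease Ctss (7.51), the chemokine receptors Ccr2 (6.96) and Cx3cr1 (3.69), the lysosomal Cd68 (6.40) and the inhibitory receptor Cd300a (4.85). Not passing were the remaining 5 genes, several of them markers of mature cells: Fcgr1 (0.01), Lgals3 (0.07), Cd14 (0.17), Adgre1 (F4/80, 0.51) and Ms4a6d (2.07). Of 16 innate sensors 4 were higher (25.0%, against 10.5% of all genes) and none lower. Clec7a (dectin-1) stood at 6.20 and Tlr2 at 4.57, while Tlr4 (0.09), Tlr9 (-0.04) and Tlr7 (0.63) did not pass. In Fc receptor and ITAM signalling, adaptors carry the signal of receptors without their own kinase. Of 15 such genes 10 were higher (66.7%, against 10.5% of all genes), the sort marker genes Fcgr3 and Fcgr2b among them. Fcer1g, the common gamma chain, was higher by 6.96, the inhibitory receptor Sirpa by 6.26, the adaptor Lat2 by 5.83, Plcg2 by 4.33 and the kinase Syk by 2.80. The 1 lower call (6.7%, against 10.3% of all genes), Pirb at -0.11, was lost when any of the arrays was left out.

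Chemokine genes had 6 of 13 higher (46.2%, against 10.5% of all genes) and none lower. Higher members included Ccl6 (3.68) and Cxcr4 (3.31), the receptor that holds progenitors in the marrow. Basophil and mast cell genes were represented by a few members: Cpa3 (mast cell carboxypeptidase, 7.52), Mcpt8 (a basophil protease, 7.42), Hdc (histidine decarboxylase, 5.40) and Mitf (2.19) were higher. Ms4a2 stood at 2.24 with a call lost without CD27+ CMP replicate 1 or any MEP array (adjusted p up to 0.067), and the other 10 of 15 did not pass, with Prg2 (-0.19), Epx (-0.04) and Cma1 (-0.04) at or near 0.

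Early lymphoid genes were divided between large differences and none. Of 18 genes 8 were higher (44.4%, against 10.5% of all genes) and 1 lower (5.6%, against 10.3%), with a median of 0.57. Notch1 read 4.06, 3.92 and 3.95 in CD27+ CMP and -2.07, -2.03 and -2.04 in MEP, a difference of 6.02 (SE 0.04, adjusted p = 4.7e-06). The chromatin organiser Satb1 was higher by 7.37 and the leukocyte protein Lsp1 by 6.25, beside Flt3, Dntt and Ighm. The genes that commit B cells stood at 0, Ebf1 at -0.08, Pax5 at -0.03 and Rag1 at -0.05, and Rag2 (0.93, adjusted p = 0.068) did not pass. Il7r (0.49) and Ccr7 (0.66) passed narrowly. Il7r kept its call only without CD27+ CMP replicate 1 (adjusted p up to 0.15 without the others), and Ccr7 lost its call without CD27+ CMP replicate 3 or any MEP array (adjusted p up to 0.13). The single lower gene, Tcf3 (-0.84), lost its call without CD27+ CMP replicate 1 or any MEP array. Of 8 Gimap genes, GTPases of lymphocytes, Gimap1 (3.50) and Gimap6 (1.83) were higher (25.0%, against 10.5% of all genes) and 6 did not pass. In the class II antigen presentation list the chaperones H2-Ob (4.48), H2-DMb2 (3.82) and H2-DMa (3.36) were higher, while the presenting molecules H2-Aa (0.33), H2-Ab1 (-0.43) and H2-Eb1 (0.10) and the invariant chain Cd74 (-0.01) did not pass.

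Of 24 stem cell genes, the sort marker gene Cd34 among them, 13 were higher (54.2%, against 10.5% of all genes). Another 3 were lower (12.5%, against 10.3%), and the median was 1.15. The number higher was 9 to 11 with an array left out. The regulators Erg (4.35), Hoxa7 (4.29), Hlf (3.88), Meis1 (3.63), Mecom (2.98) and Hoxa9 (2.27) and the surface and secreted proteins Procr (3.42) and Angpt1 (3.23) were higher. Hlf read 3.02, 2.97 and 2.83 in CD27+ CMP against -1.11, -1.06 and -0.66 in MEP. Tgm2 (transglutaminase 2, -5.26) and Mllt3 (a reader of acylated histones, -4.41) went against the rest of the list. Slamf1, which encodes CD150, stood at -1.74 and kept its call only without CD27+ CMP replicate 2 (adjusted p up to 0.12 without the others). Mycn (2.55) kept its call only without CD27+ CMP replicate 1, Ndn (1.54) only without MEP replicate 3, and Hoxb4 (0.51) only without MEP replicate 2. Mn1 (1.32) lost its call without CD27+ CMP replicate 3 or any MEP array. Mycn had probe sets called in both directions, those other than the 1 read ranging from -0.188 to -0.099.

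GMP, which like CD27+ CMP carry CD34 and CD27, were used to ask which of these genes CD27+ CMP share with the neighbouring granulocyte-monocyte gate. This comparison, in a fit of all 12 arrays, uses the same 3 CD27+ CMP arrays, so its values are set beside those above and not added to them. It called 1368 of 45037 probe sets (3.04%). Dntt, 8.46 above MEP, had a log2 difference CD27+ CMP minus GMP of 8.52 (SE 0.18, adjusted p = 3.9e-08), and Flt3, 8.38 above MEP, one of 5.41 (SE 0.35, adjusted p = 5.8e-05). Other genes higher in CD27+ CMP than in both populations were Lsp1 (3.50 against GMP), Gimap6 (4.09), Gimap1 (3.36), H2-Ob (3.05), Angpt1 (2.73), Mecom (2.48), Hlf (1.97) and Meis1 (1.94), and these calls held with any of the 6 arrays of the 2 populations left out. Satb1 (1.89) and Bcl2 (1.68) also passed, but Satb1 lost its call when any of those arrays was left out (adjusted p from 0.068 to 0.11) and Bcl2 without any but CD27+ CMP replicate 2 (adjusted p up to 0.18). Cebpa (-0.07), Spi1 (0.47), Irf8 (1.03), Mpo (-0.16), Prtn3 (-0.57), Csf1r (0.64), Emb (0.45) and Tyrobp (0.17) did not pass against GMP.
Several genes lay between the populations. Fcgr3 was lower than in GMP (log2 difference -4.95, SE 0.60, adjusted p = 0.0022), as were Hdc (-3.24), Cybb (-2.66), Alas1 (-1.99) and Hfe (-1.38). Hp (-2.55) and Gfi1 (-2.04) passed too, but not when any of the CD27+ CMP or GMP arrays was left out (adjusted p up to 0.13 and 0.14). Slc40a1 was lower in CD27+ CMP than in MEP by 7.37 (log2 difference -7.37) and than in GMP by 3.39 (log2 difference -3.39, adjusted p = 0.00069), which placed it lowest there of the 3 populations. Gfi1b (2.25, adjusted p = 0.036) and Zfpm1 (2.02, adjusted p = 0.049) were lower in CD27+ CMP than in MEP but higher than in GMP, calls against GMP that held only without GMP replicate 3 (adjusted p up to 0.13 and 0.19 without the others), and F2r was 3.77 above GMP (SE 0.30, adjusted p = 0.0002). Elane (-2.38, adjusted p = 0.084) did not pass against GMP.

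Adhesion molecules and tetraspanins split between the populations, 11 of 20 higher (against 10.5% of all genes) and 4 lower (against 10.3%). Emb, Cd52, Cd53, Cldn13 and Tspan8 are also among the 24 genes named above for the size of their differences. The list was chosen with earlier results of these data known, so its counts are not separate from that choice. Beside Emb, Cd52 and Cd53, Icam1 (5.32), the endothelial and leukocyte protein Pecam1 (4.995), the integrin chain Itgal (4.91), Cd48 (3.35), Selplg (the P-selectin ligand, 2.54) and Itga6 (1.34) were higher. Cd47 (1.51) kept its call only without MEP replicate 1, and Itgb7 (1.61) lost its call without CD27+ CMP replicate 3 or MEP replicate 1 or 2. On the MEP side stood Cldn13 and the tetraspanins Tspan8, Tspan33 (-5.72) and Cd82 (-2.18). The integrins Itga4 (-0.91), Itgb1 (-0.97) and Itgb2 (-0.69) did not pass.

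Genes of the sphingosine 1-phosphate system differed in both directions. This lipid is made by sphingosine kinases, exported by carriers and read by receptors. The kinase gene Sphk1 read -4.68, -3.84 and -5.91 in CD27+ CMP and 3.04, 3.35 and 3.38 in MEP, and the red cell exporter Mfsd2b was lower too (-4.73, SE 0.41, adjusted p = 0.0022). The receptor S1pr3 read 4.08, 4.17 and 4.36 in CD27+ CMP against -4.05, -4.07 and -4.10 in MEP, a difference of 8.28 (SE 0.08, adjusted p = 5.7e-06). The receptor S1pr2 (3.46), the ceramidase Asah1 (2.56), the exporter Spns2 (2.15) and the lyase Sgpl1 (1.72) were also higher. Sphk2 (-0.36) and S1pr1 (-0.04) did not pass, and Sgpp1 (-1.75) lost its call without any CD27+ CMP array or without MEP replicate 1 or 2. In all, 5 of 12 members were higher (41.7%, against 10.5% of all genes) and 3 lower (25.0%, against 10.3%).

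Nutrient transporters and glycolysis showed exchanges within families. The transporters Slc38a5, Slc1a4 (-2.75) and Slc43a1 (-2.29) were lower, while the glucose transporter Slc2a1 (4.96), the amino acid transporters Slc7a6 (4.53) and Slc1a5 (0.65) were higher. The list counted 5 of 15 in each direction (33.3%, against 10.5% of all genes higher and 10.3% lower), but as few as 3 in each with an array left out. Among 13 glycolysis and pentose phosphate genes 6 were higher (46.2%, against 10.5% of all genes) and 1 lower (7.7%, against 10.3%). Hexokinase 3 (Hk3) read 3.50, 3.30 and 3.46 in CD27+ CMP and -3.42, -4.11 and -4.29 in MEP, a difference of 7.36 (SE 0.24, adjusted p = 0.00012). Hexokinase 2 (Hk2) was higher by 3.15 and hexokinase 1 (Hk1) lower (log2 difference -1.70, SE 0.26, adjusted p = 0.015), a call lost without MEP replicate 2 (adjusted p = 0.064). Pyruvate kinase Pkm was higher by 7.38, the mutase Pgam1 by 3.54 and Pfkp by 1.97, while Ldha (-0.04), Tpi1 (0.17) and Aldoa (0.42) did not pass.

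**Figure D5:**
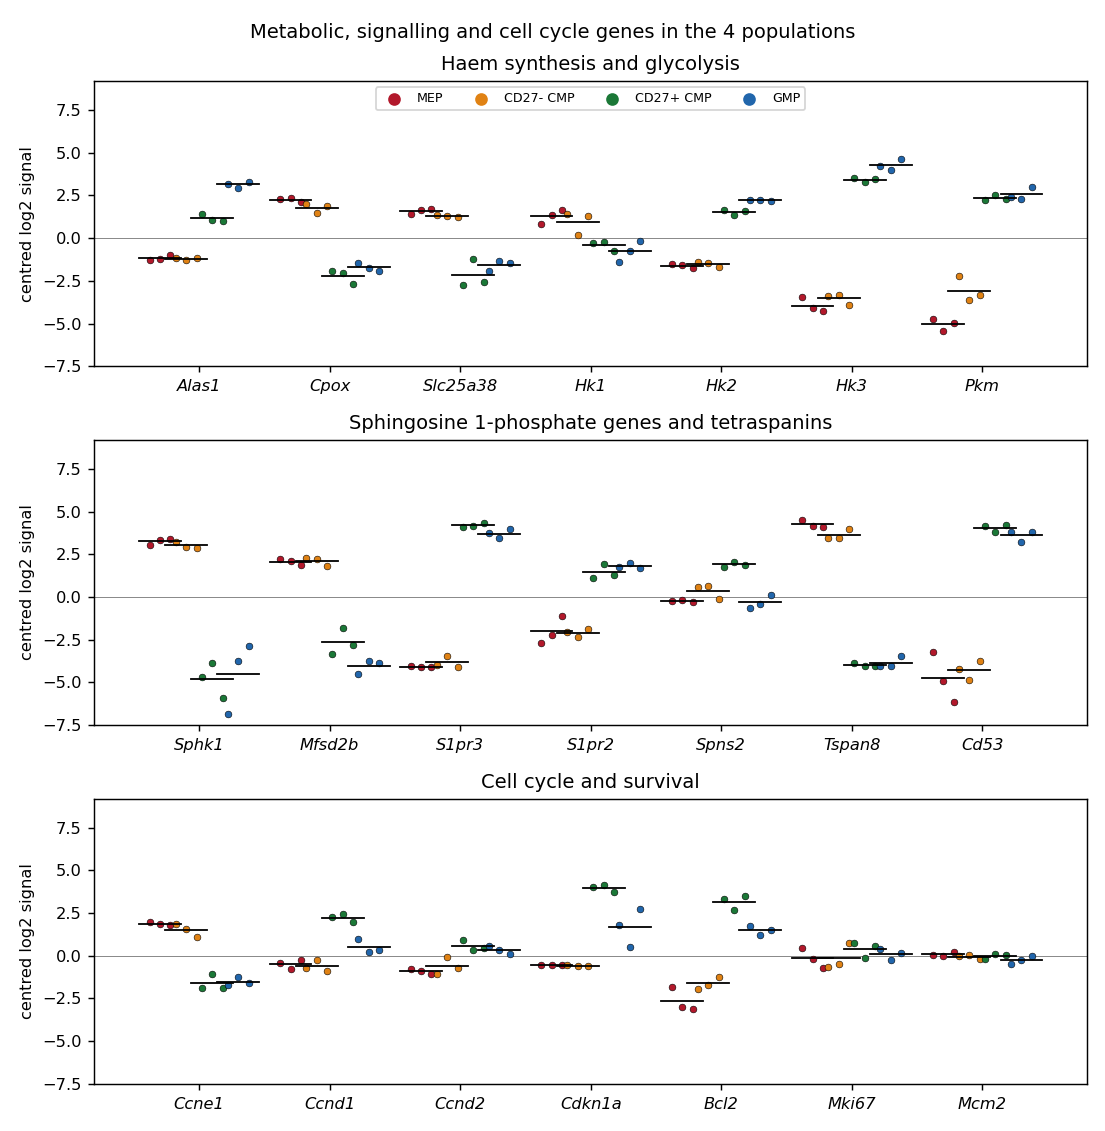
Centred log2 signal (y axis) on each array of MEP, CD27- CMP, CD27+ CMP and GMP (3 each, bars are means) for genes of haem synthesis and glycolysis, sphingosine 1-phosphate genes with 2 tetraspanins, and cell cycle and survival genes. Alas1 opposes Cpox and Slc25a38, Hk3 opposes Hk1 and S1pr3 opposes Sphk1 between CD27+ CMP and MEP, while Mki67 and Mcm2 overlap.

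Most cell division genes did not pass. Of 26 replication genes 3 were lower (11.5%, against 10.3% of all genes) and none higher, with a median of -0.24 (1 was higher without CD27+ CMP replicate 3 or MEP replicate 3). Of 19 mitosis genes 4 were lower (21.1%) and none higher, with the same median of -0.24 (1 was higher without CD27+ CMP replicate 2). Mki67 differed by 0.52 (adjusted p = 0.31) and Mcm2 by -0.11 (adjusted p = 0.40). The lower calls in replication were cyclin E1, the licensing factor Cdc6 (-1.26, SE 0.07) and the replication factor Mcm10 (-0.67, adjusted p = 0.037), which kept its call only without MEP replicate 3 (adjusted p up to 0.11 without the others). Ccne1 read -1.90, -1.08 and -1.89 in CD27+ CMP and 1.97, 1.88 and 1.82 in MEP, a difference of -3.51 (SE 0.25, adjusted p = 0.0011). The mitosis calls were small, from -0.83 (Ccna2) to -0.32 (Ccnb2), and numbered 2 without CD27+ CMP replicate 1 and 1 without CD27+ CMP replicate 3, MEP replicate 1 or MEP replicate 2. Of 13 listed G1 regulators 4 were higher (30.8%, against 10.5% of all genes) and 9 did not pass, with a median of 0.40. None was lower, or 1 without MEP replicate 3. Ccne1, which was lower, was counted with the replication genes. The inhibitor p21, Cdkn1a, read 4.01, 4.16 and 3.73 in CD27+ CMP and -0.54, -0.56 and -0.52 in MEP, a difference of 4.51 (SE 0.11, adjusted p = 6.2e-05). Cyclins Ccnd1 (2.71) and Ccnd2 (1.47) were higher as well, as was the inhibitor Cdkn2d (1.42), the last not without MEP replicate 1 (adjusted p = 0.052).

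Ribosome biogenesis genes had 6 of 20 lower and none higher, with a median of -0.68. Ddx21 (-1.34, SE 0.13, adjusted p = 0.0028) was the firmest of them. The count was 1 without MEP replicate 1 or 3 and 2 without MEP replicate 2, and Myc itself differed by 0.02. Of 14 cholesterol genes 3 were lower (21.4%, against 10.3% of all genes), led by lanosterol synthase Lss (-2.26, SE 0.24). That count was 5 without CD27+ CMP replicate 2. Among survival genes Bcl2 was higher by 5.81 (SE 0.44, adjusted p = 0.0014) on the most variable of 5 probe sets that all passed, whereas Mcl1 (0.41) and Bcl2l1 (0.70) did not pass. Pim1 (2.55) lost its call without CD27+ CMP replicate 1 or any MEP array (adjusted p up to 0.062), and Bcl2l11 (-0.65) when any of the 6 arrays was left out. Of the nuclear lamina genes Lmna stood at -8.21 and Sun1 at -2.14, against Sun2 at 3.00 and Lmnb1 at 0.87. The calls of Sun1 and Lmnb1 did not hold without MEP replicate 1 (adjusted p = 0.051 and 0.062).

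Immediate early genes, which respond to handling as well as to signals, were uneven among the arrays of 1 group. Fos read 4.59, 2.22 and 0.84 in CD27+ CMP and -0.84, -1.34 and -1.37 in MEP, and its difference of 3.73 (SE 1.00) did not pass (adjusted p = 0.076). Egr1 read -1.01, -0.33 and -0.99 against 0.33, 2.38 and 2.57, a difference of -2.54 that did not pass (adjusted p = 0.074). In both genes MEP replicate 1 was the MEP array nearest to CD27+ CMP. The nearest CD27+ CMP arrays were replicate 3 in Fos and replicate 2 in Egr1, and the groups did not overlap. Of 17 genes 5 were higher (29.4%, against 10.5% of all genes): Btg2 (4.66), Zfp36 (3.60), Klf6 (2.41), Dusp1 (2.09) and Ier2 (1.33). The count was 8 without CD27+ CMP replicate 1, and 3 genes were lower without MEP replicate 1. Of 17 interferon response genes Ifitm1 (4.72), Gbp3 (3.83), Ifitm3 (2.56) and Gbp2 (1.55) were higher (23.5%, against 10.5% of all genes). Most of the classical response genes, Ifit1 (-0.13), Mx1 (-0.05) and Oas2 (-0.18) among them, did not pass. Irf7 (-1.58) lost its call without CD27+ CMP replicate 1 or 3 or MEP replicate 2 (adjusted p up to 0.079).

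Markers of other cells that a gate could hold were examined list by list. Of 11 mature B and plasma cell markers only Cd79b was higher (6.23, SE 0.37), a share of 9.1% against 10.5% of all genes. Cd79a (-0.04), Cd22 (-0.04) and Ms4a1 (-0.20) did not pass. Averaged over that list, Cd79b included, the arrays read 0.31 to 0.68 in CD27+ CMP and -0.37 to -0.15 in MEP. The median difference of the list was only -0.04, and 6 of its 11 members spanned under 0.5 log2 over the 12 arrays, so the means do not describe the whole list. Of 15 T and NK cell markers Nkg7 (4.64) and Klrd1 (2.00) were higher (13.3%, against 10.5% of all genes). The CD3 genes Cd3d (-0.04), Cd3e (-0.03) and Cd3g (-0.03) stood at 0. List means, Nkg7 and Klrd1 included, were 0.26 to 0.29 in CD27+ CMP and -0.23 to -0.14 in MEP. The median difference was -0.04, and 11 of the 15 members spanned under 0.5 log2. Of 14 stromal and endothelial markers Pdgfrb (4.96, SE 0.17) and Emcn (1.61) were higher (14.3%, against 10.5% of all genes). Eng was lower at -0.80 (7.1%, against 10.3%), a call lost without CD27+ CMP replicate 1 or 3. Cdh5 (-0.05), Col1a1 (0.01) and Pdgfra (-0.05) did not pass. That list, Pdgfrb and Emcn included, averaged 0.27 to 0.37 in CD27+ CMP and -0.09 to 0.09 in MEP. Its median difference was -0.05, and 9 of its 14 members spanned under 0.5 log2. Among 10 dendritic cell genes Flt3 was the 1 higher call that held with any array left out, as Itgax (0.42) and Tcf4 (1.62) did not, while Zbtb46, a factor of classical dendritic cells and also of erythroid progenitors, was lower at -5.49 (SE 0.20, adjusted p = 0.00017). Xcr1 (-0.03), Siglech (-0.03) and Cd209a (-0.03) stood at 0. The part of other cells in the differences above was not tested.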

How the data were processed

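For each probe set and array the authors deposited a value that was read as log2, since the submitters' processing notes name GCRMA, which works on that scale. Its version and the logarithm's base were not given in the sources used here. Each probe set's 12 values have a median within 5e-07 of 0, so the values are relative to the middle array and no filter on absolute signal could be applied. GCRMA draws weak signals toward a background, which makes the size of a difference with 1 population near background uncertain. Precision is limited by having 3 arrays a group, with a median SE of 0.0596 log2.

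Differences were fitted with limma 3.58.1 in R 4.3.3 on the 3 CD27+ CMP and 3 MEP arrays alone, two-sided, with Benjamini-Hochberg adjustment over 45037 probe sets. The platform annotation paired 34945 probe sets with 1 gene symbol, 932 with several and 9160 with none. A gene was read from whichever of its probe sets varied most (standard deviation over the 12 arrays) and keeps that probe set's adjusted p, which gave 18193 genes. Of 582 genes on the 38 lists, 535 had such a probe set. CD27+ CMP minus GMP was taken from a fit of all 12 arrays with 1 mean per population. The script was tested on simulated data.

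Named are the 12 genes with the largest difference in each direction among those past the threshold whose arrays do not overlap, leaving out unnamed gene models, the genes of the sort markers, and list members with the largest differences or shown as not passing. The comparison, the gene lists and the DNA words were chosen with earlier results of these data known, and the genes plotted over the 4 populations were picked after their values were seen. Alternatives tried were other array scalings, array weights, robust moderation, a filter on flat probe sets, a size threshold, the mean of a gene's probe sets, the replicate number as a block and each array left out. Replicate numbers were not used as pairs. No batch was given in the sources used here.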

Additional observations from a re-analysis of the deposited data

How the results depend on the processing

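Among the top genes and list members, chosen by size or with earlier results known, most calls held under other processing. Calls of other genes were not tallied in this way. Of 256 called genes among the top genes and list members, 194 kept their call and direction under each of 14 alternatives. That tally leaves out the planned size threshold of 1 log2 and the planned array weights, and counts the later gene-by-gene weights. The planned array weights did not converge and gave MEP replicate 2 a weight of 333. With them, 6169 probe sets were higher and 26930 lower, and 3333 genes were higher and 10409 lower. Gene-by-gene weights, chosen after seeing the data, gave that array 8.61 and called 5298 probe sets higher and 21077 lower, and 2925 genes higher and 8515 lower. With a size of at least 1 log2, 1838 probe sets and 1147 genes were lower.

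With an array left out, probe sets called higher ran from 2246 to 3010 and lower from 1980 to 3370, and genes from 1384 to 1764 and from 1078 to 1716. The other alternatives kept these counts within 1.5 times, the mean of a gene's probe sets giving only the gene counts. Cd9 lost its call in the fit of all 12 arrays (adjusted p = 0.058), and Zeb2 with the mean of its probe sets (adjusted p = 0.053). Gimap3 changed sign under quantile normalization (0.032, adjusted p = 0.045), and Cd300a minus GMP turned to -0.33 (adjusted p = 0.042) with the mean of its probe sets; the cause was not tested.

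With the replicate number as a block, 2841 probe sets were higher and 2848 lower, and 1691 genes were higher and 1564 lower. Syk (adjusted p = 0.054), Dusp1 (adjusted p = 0.055) and Hk1 (adjusted p = 0.08) were among 29 called list members that no longer passed with it. Deviations of same-numbered arrays correlated at 0.402, 0.092 and 0.198. CD27+ CMP replicates 1 and 3 correlated best with the MEP array of their own number, but replicate 2 did so with MEP replicate 3 (0.239). As the match was incomplete, the numbers were not taken as pairs. Over the 12 arrays 23009 probe sets had a range under 0.5 log2. As the deposited values are centred, neither presence nor absence can be read for them.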
